A study of Homo sapiens with 22 samples.

Results

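The genes described here are 10 neighbours of BAZ1B in 7q11.23, the region that is deleted in Williams syndrome: BCL7B, TBL2, MLXIPL, VPS37D, DNAJC30, BUD23, STX1A, ABHD11, LIMK1 and EIF4H. They were chosen by name and position, from the 59087 gene names of 2 tables of raw RNA-Seq counts, to ask whether a deletion within BAZ1B changes the RNA of the genes around it. The cells were HUDEP-2, immortalized human erythroid progenitors that proliferate at D0 and were matured in culture until D6. The BAZ1B experiment holds 3 WT and 3 BAZ1B KO libraries at each day, and the H2A.X experiment holds 2 WT and 3 H2A.X KO libraries at each day. The BAZ1B KO was made with CRISPR/Cas9 and a pair of guides, one upstream of the start codon and one beyond the first exon, while the guides of the H2A.X KO flank the coding sequence of a histone gene on another chromosome. Replicates are subclones of 1 immortalized line, so p values measure the spread between subclones and culture. The titles do not state that libraries with the same number at D0 and D6 are 1 subclone, though the KO columns carry the same numbers on both days. The main tests treat the libraries of both days as independent.

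BAZ1B, also called WSTF, is a subunit of chromatin remodelling complexes built on the ISWI ATPases, and it is the kinase that phosphorylates tyrosine 142 of histone H2A.X. In Williams syndrome, 1 copy of the whole region is lost, so that the dose of many neighbouring genes falls together. A deletion within a single gene is designed to leave the copy number of its neighbours as it was. The neighbours have unrelated functions. BCL7B is a subunit of the SWI/SNF remodelling complexes, and MLXIPL (ChREBP) is a transcription factor that responds to glucose. BUD23 methylates 18S ribosomal RNA, and EIF4H stimulates the helicase eIF4A in translation initiation. DNAJC30 and ABHD11 are mitochondrial proteins, TBL2 is a WD-repeat protein of the endoplasmic reticulum, STX1A is a SNARE of neuronal exocytosis, VPS37D belongs to the ESCRT-I sorting complex, and LIMK1 is the kinase that inactivates cofilin.

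All 10 genes lie on the upstream side of BAZ1B, which is read from the minus strand of chromosome 7 between 73440406 and 73522293 (GRCh38, GENCODE 44). Its first of 20 exons spans 73521827 to 73522293, and the start codon lies in it at 73521931 to 73521933. BCL7B (73536356 to 73557690, minus strand) ends 14.1 kb beyond the BAZ1B start site, followed by TBL2 (73567537 to 73578791, minus strand) at 45.2 kb and MLXIPL (73593194 to 73624543, minus strand) at 70.9 kb. VPS37D (73667831 to 73672112, plus strand) lies at 146 kb, DNAJC30 (73680918 to 73683453, minus strand) at 159 kb and BUD23 (73683597 to 73698212, plus strand) at 161 kb. Next come STX1A (73699206 to 73719672, minus strand) at 177 kb and ABHD11 (73736094 to 73738852, minus strand) at 214 kb. LIMK1 (74082933 to 74122525, plus strand) and EIF4H (74174231 to 74197122, plus strand) are the most distant, at 561 kb and 652 kb. These distances run from the BAZ1B start site to the nearest end of each gene.

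DNAJC30 and BUD23 start in opposite directions from a shared stretch, so their start windows overlap. RefSeq windows of 250 bases before to 50 bases after a start site (GRCh38.p14) are shown for BUD23, BAZ1B and CLDN3. CLDN3 is a gene of the region named below for its lower counts. The BUD23 window carries both names of the pair because it takes in the DNAJC30 start site, but it does not hold the whole DNAJC30 window. The BAZ1B window takes in the first 50 bases of its first exon, and the ends of the deletion were not placed. In the BUD23 window, read on the plus strand at chr7:73683347-73683646, capitals mark the 145 bases from the DNAJC30 start site to the BUD23 start site. In the windows of BAZ1B, chr7:73522244-73522543, and CLDN3, chr7:73770221-73770520, both on the minus strand, capitals mark the 50 bases after the start site.
BUD23 and DNAJC30: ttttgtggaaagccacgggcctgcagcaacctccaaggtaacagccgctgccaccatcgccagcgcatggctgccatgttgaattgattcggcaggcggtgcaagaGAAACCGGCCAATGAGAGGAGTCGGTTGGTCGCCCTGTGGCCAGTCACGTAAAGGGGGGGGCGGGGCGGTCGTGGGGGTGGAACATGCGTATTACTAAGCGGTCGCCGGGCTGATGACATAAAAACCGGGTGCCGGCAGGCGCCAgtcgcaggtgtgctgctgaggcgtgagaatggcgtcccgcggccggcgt
BAZ1B: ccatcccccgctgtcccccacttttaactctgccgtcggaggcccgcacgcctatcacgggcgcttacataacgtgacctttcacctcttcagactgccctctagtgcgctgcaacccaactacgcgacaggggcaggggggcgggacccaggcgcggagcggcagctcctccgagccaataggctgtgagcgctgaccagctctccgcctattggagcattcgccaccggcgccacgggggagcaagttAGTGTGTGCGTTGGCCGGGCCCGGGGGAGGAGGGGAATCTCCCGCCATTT
CLDN3: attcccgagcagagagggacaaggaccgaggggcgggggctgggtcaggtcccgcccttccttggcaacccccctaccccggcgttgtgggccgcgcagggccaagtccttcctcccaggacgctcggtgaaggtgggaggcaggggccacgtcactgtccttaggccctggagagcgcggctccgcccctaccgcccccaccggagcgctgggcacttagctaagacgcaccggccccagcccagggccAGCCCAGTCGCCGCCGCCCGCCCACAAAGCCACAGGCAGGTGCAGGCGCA
The start windows of all 10 genes were found in RefSeq, with 2 windows each for BCL7B, TBL2 and LIMK1. A GC box (GGGCGG, either strand) was present in at least 1 window of 10 of the 10 genes and in those of 48.3% of all 27305 genes. CCAAT, on either strand, was present for BCL7B, DNAJC30, BUD23 and LIMK1, and for 39.7% of all genes. Since the windows of DNAJC30 and BUD23 overlap, these are not separate matches. Neither TATAAA nor the GATA letters AGATAA occurred in any of the 10 genes' windows, against 14.0% and 12.4% of all genes. The window richest in G and C of each gene held 63.3% to 79.7% of these bases with a median of 74.7%, where the median of all genes, taken the same way, was 59.7%.

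Total counts were 33199408 to 41273244 per library in the BAZ1B experiment and 11910141 to 21013004 in the H2A.X experiment, and the biological coefficients of variation were 0.0865 and 0.239. Counts were scaled with edgeR's TMM factors to normalized counts, and log2 fold changes with standard errors come from edgeR's quasi-likelihood test with adjusted p values over all genes that passed a filter on low counts. A gene was called at an adjusted p below 0.05. Of the 12 erythroid marker genes, 10 to 12 reached 1 CPM in every group, and none of the 3 lymphocyte and 2 fibroblast markers did in any group. Summed erythroid markers in the BAZ1B experiment were 6295 to 7040 CPM in WT and 7408 to 7908 CPM in KO at D0, and 38070 to 43755 CPM in WT and 32160 to 37916 CPM in KO at D6. At D0 only HBB was higher in KO without overlap, at 2815 to 3318 CPM against 1629 to 2266 CPM in WT. Lower in KO without overlap were SLC4A1 (2.05 to 6.37 against 30.9 to 34.0 CPM), HBA1 (147 to 159 against 188 to 226 CPM), HBG1 and HBG2. The other listed erythroid markers overlapped at D0. In these bulk libraries, fewer cells of a type and less RNA per cell cannot be told apart.

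Per kilobase of exon, the neighbours differed widely in level. In WT cells at D0, BUD23 was at 72.9 ± 1.96 CPM per kb (SD, n = 3) and EIF4H at 43.7 ± 0.631, above BAZ1B itself at 37.0 ± 0.397. BCL7B followed at 12.6 ± 0.373, ABHD11 at 10.7 ± 0.307, TBL2 at 6.90 ± 0.348, LIMK1 at 5.01 ± 0.234 and DNAJC30 at 2.94 ± 0.125 CPM per kb. These genes thus spanned a wide range, with the ribosome and translation genes BUD23 and EIF4H at the top. STX1A was at 0.462 ± 0.0698, MLXIPL at 0.00648 ± 0.00264, and VPS37D had no read in any D0 library of this experiment. Neighbours in this order did not overlap between libraries at D0 in either genotype down to STX1A. At D6 the order was the same, except that TBL2 and LIMK1 overlapped in WT (4.30 ± 0.141 and 4.19 ± 0.311 CPM per kb) and in KO (4.55 ± 0.160 and 4.37 ± 0.512). The levels rest on the exon lengths of the annotation used here.

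BAZ1B counts were lower in every BAZ1B KO library than in every WT library. At D0 they were 6556, 8349 and 7349 normalized counts in KO and 9913, 9823 and 9703 in WT, which left 66.8%, 85.1% and 74.9% of the WT mean in the 3 KO libraries (log2 fold change -0.40, SE 0.0670, edgeR adjusted p = 0.00415). At D6 they were 7037, 7377 and 6817 in KO and 9135, 9429 and 9104 in WT (log2 fold change -0.38, SE 0.0672, edgeR adjusted p = 0.00250). The counts cover the whole gene, with 7060 bp of exons, of which the first exon takes 467 bp, so reads on the remaining exons are still counted in KO cells and the value does not measure how much of the protein is left.

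None of the neighbours passed the test in BAZ1B KO cells at either day. The filter left 8 of the 10 genes to test, all but MLXIPL and VPS37D. At D0, 0 of these 8 were called by edgeR, 0 had an unadjusted p below 0.05 and 0 were called by DESeq2, where edgeR called 3.88% of the 13879 genes tested and 15.4% had an unadjusted p below 0.05. At D6, edgeR called 0 of the 8, where it called 12.8% of all genes. An unadjusted p below 0.05 was found for 1 of the 8, ABHD11, where 26.2% of all genes had one. DESeq2 called 1 of the 8, again ABHD11. The share of all genes that DESeq2 called on either day is not given here. None met the stricter cutoffs (adjusted p below 0.001, log2 fold change beyond 1.5 in either direction), which 0.36% of genes met at D0 and 0.749% at D6. The median log2 fold change of the 8 genes was -0.04 at D0 and 0.05 at D6, and that of all tested genes 0.00 on both days after rounding.

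**Figure D1:**
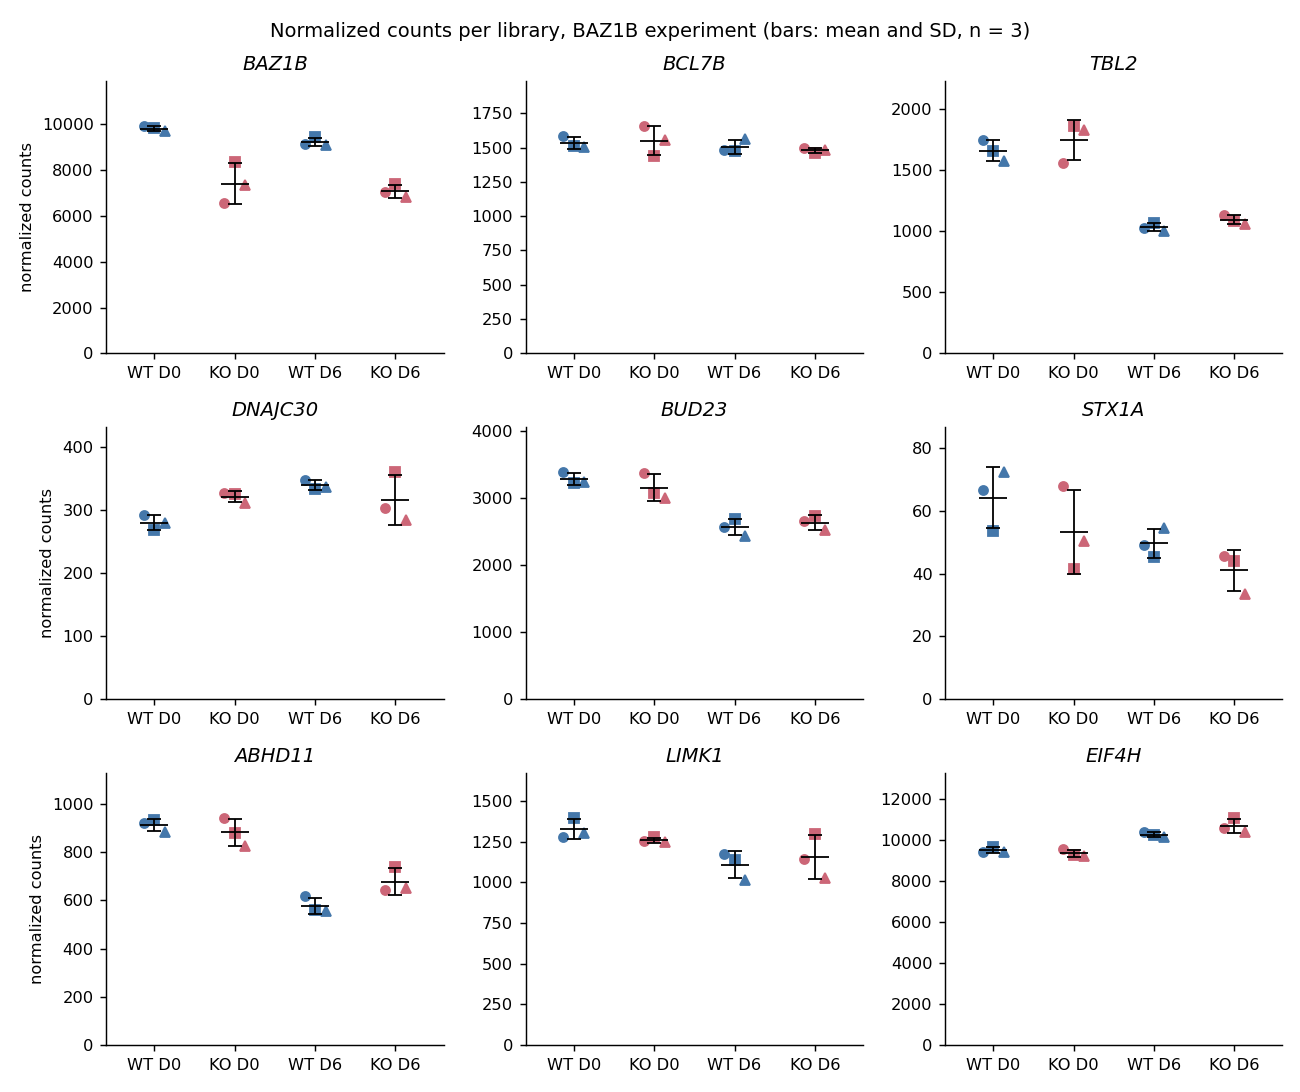
Normalized counts of BAZ1B and the 8 tested neighbours in the BAZ1B experiment, with 1 panel per gene. The horizontal axis gives the 4 groups and the vertical axis normalized counts from 0, points are libraries (circle, square and triangle for replicates 1, 2 and 3; WT blue, KO red), and bars are the mean and SD of 3 libraries. BAZ1B lies lower in every KO library, while among the neighbours the ABHD11 libraries of KO and WT separate at D6.

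The intervals around these changes were narrow for most of the genes. EIF4H had 9562, 9287 and 9246 normalized counts in KO and 9448, 9684 and 9444 in WT at D0. Its log2 fold change of -0.02 had a 95% interval from -0.10 to 0.05, and at D6 it was 0.06, with an interval from -0.02 to 0.13. BCL7B, the nearest neighbour, had 1654, 1440 and 1557 in KO and 1586, 1512 and 1504 in WT at D0. KO and WT overlapped, with a log2 fold change of 0.02 and an interval from -0.10 to 0.13, and of -0.03 with an interval from -0.14 to 0.09 at D6. BUD23 had 3384, 3082 and 3006 in KO and 3391, 3231 and 3246 in WT at D0, again with overlap. The log2 fold change of BUD23 was -0.06 (interval -0.17 to 0.05) at D0 and 0.04 (interval -0.08 to 0.15) at D6. All 8 intervals lay above a log2 change of -1 on both days. The copy number of these genes in the cells was not tested. The lowest bounds, -0.73 at D0 and -0.76 at D6, both belonged to STX1A, the neighbour with the fewest counts among those tested.

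DNAJC30 had the smallest p of the 8 at D0. Its normalized counts were 326, 326 and 311 in KO and 293, 269 and 279 in WT, so the groups did not overlap. The log2 fold change was 0.20 (SE 0.0962, interval -0.01 to 0.41), with an edgeR adjusted p of 0.355. At D6 the KO libraries spread around the WT ones, with 303, 360 and 285 in KO and 348, 333 and 337 in WT (log2 fold change -0.10, SE 0.0966, edgeR adjusted p = 0.549). LIMK1 was the other gene without overlap at D0, with 1256, 1275 and 1245 in KO and 1276, 1395 and 1305 in WT. The highest KO library and the lowest WT library were less than 1 normalized count apart, and the log2 fold change was -0.07 (interval -0.24 to 0.09). In all, 2 of 8 neighbours showed no overlap at D0, where 22.5% of all tested genes showed none.

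ABHD11 had the smallest p at D6, the day with more calls genome-wide. Its normalized counts were 641, 740 and 653 in KO and 616, 561 and 556 in WT, and every KO library lay above every WT library. The log2 fold change was 0.23 (SE 0.0755, interval 0.07 to 0.39, unadjusted p = 0.00964), and the edgeR adjusted p of 0.0657 missed the threshold. DESeq2 gave 0.24 with an adjusted p of 0.0492, and without KO D0 replicate 1 edgeR gave 0.23 with an adjusted p of 0.0413. Over the 20 settings tried the adjusted p ran from 0.0413 to 0.245, with 2 of them below 0.05. The highest KO library, replicate 2, stood 0.36 above the WT mean on the log2 scale and the other two 0.15 and 0.18. At D0 the ABHD11 counts of 942, 878 and 827 in KO and 920, 934 and 883 in WT overlapped, with a log2 fold change of -0.05. An antisense transcript, ABHD11-AS1, was listed with 0 to 3.94 normalized counts per library of this experiment. Whether antisense reads entered the ABHD11 counts was not tested. ABHD11 was the only neighbour without overlap at D6, where 30.8% of all tested genes showed none.

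**Figure D2:**
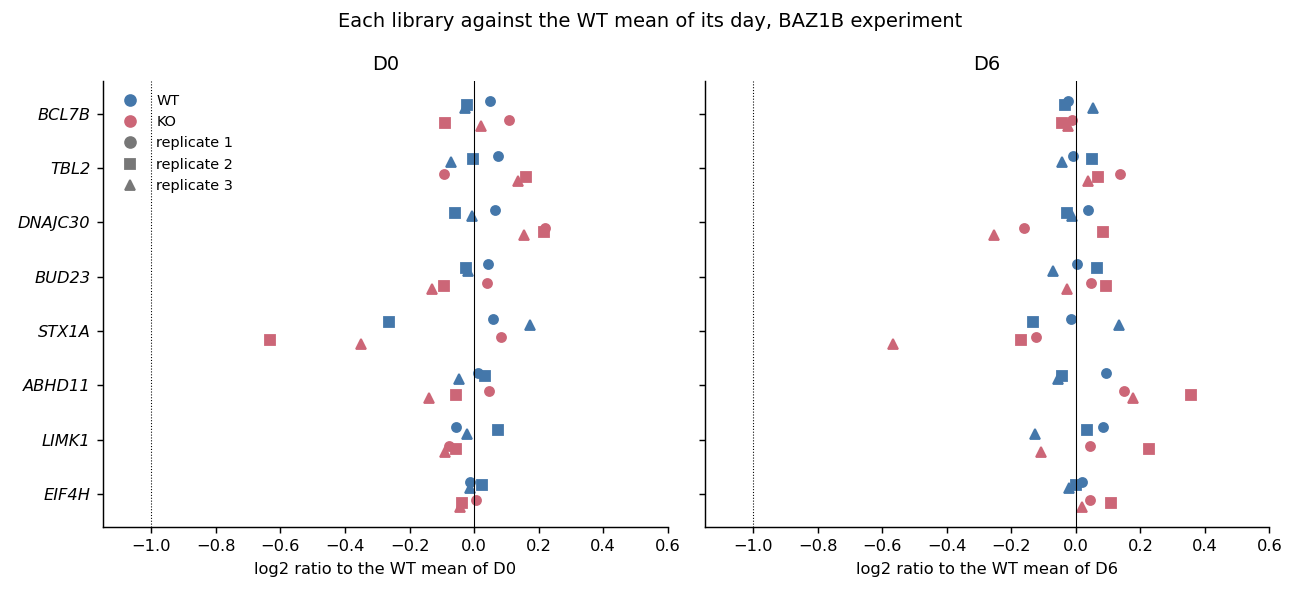
Each library of the BAZ1B experiment against the WT mean of its day, at D0 (left) and D6 (right), for the 8 tested neighbours in chromosomal order. The horizontal axis is the log2 ratio of normalized counts, each point is 1 library (WT blue, KO red, shapes for replicates), and the dotted line marks -1. Apart from STX1A, KO libraries lie between -0.14 and 0.22 at D0 and between -0.25 and 0.36 at D6.

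TBL2 and STX1A complete the tested set. TBL2 had 1555, 1857 and 1825 normalized counts in KO and 1745, 1655 and 1578 in WT at D0, with replicate 1 of KO below all WT libraries and the other KO libraries above them. Its log2 fold change was 0.07 (interval -0.07 to 0.22) at D0 and 0.08 (interval -0.07 to 0.23) at D6. STX1A had 68.0, 41.4 and 50.3 in KO and 66.7, 53.4 and 72.3 in WT at D0, and 45.6, 44.1 and 33.5 in KO and 49.1, 45.3 and 54.4 in WT at D6. The groups overlapped on both days, and log2 fold changes of -0.27 at D0 (SE 0.213) and -0.27 at D6 (SE 0.225) were little more than 1 SE from 0. MLXIPL was close to the floor, with 0, 5 and 2 normalized counts in KO and 1, 2 and 1 in WT at D0. At D6 it had 8, 12 and 7 normalized counts in KO and 3, 3 and 3 in WT, from 7 to 10 raw reads per KO library and 3 per WT library. Without the filter, the D6 difference of MLXIPL had a log2 fold change of 1.43 (interval -0.01 to 2.87) and an edgeR adjusted p of 0.318. VPS37D had at most 1 read in any library, so a change of it was not detectable at this depth.

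The KO libraries did not deviate as a block over the region. Across the 8 genes, the median log2 ratio to the WT mean was 0.04, -0.06 and -0.07 in KO replicates 1, 2 and 3 at D0, and 0.04, 0.09 and -0.03 at D6. The same KO libraries had BAZ1B itself at -0.58, -0.23 and -0.42 at D0 and at -0.39, -0.32 and -0.44 at D6. After the group means were removed, log2 CPM of ABHD11 and EIF4H correlated with r = 0.89 over the 12 libraries, LIMK1 and EIF4H with 0.86, and DNAJC30 and ABHD11 with 0.71, while TBL2 and STX1A gave -0.57. The divergent pair DNAJC30 and BUD23 gave 0.54. These values describe libraries that share depth and scaling factors. The genes most like DNAJC30 in log2 CPM over the same 12 libraries, day differences included, were AL354892.1 (r = 0.93), FAM104B (0.90) and HIST1H2BC (0.90), and those most like ABHD11 were ME1 (0.98), PDXK (0.98) and CIAPIN1 (0.98).

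Whether the BAZ1B KO effect differed between the days was tested directly. edgeR called 0 of the 8 neighbours, DESeq2 called 0, and 2 had an unadjusted p below 0.05, where edgeR called 2.47% of all genes and 16.5% had an unadjusted p below 0.05. ABHD11 moved by 0.28 on the log2 scale (SE 0.105, edgeR adjusted p = 0.205) and DNAJC30 by -0.30 (SE 0.136, edgeR adjusted p = 0.295). With the subclone, taken from the replicate number, as a block, edgeR called 718 of all genes in place of 343 and still 0 of the 8 neighbours.

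Beyond the 10 neighbours, 22 of the 50 genes within 1 Mb of BAZ1B could be tested, the 8 neighbours among them. At D0, 1 of the 22 was called, where 3.88% of all tested genes were. The called gene was CLDN3, which encodes a claudin of tight junctions and starts 248 kb from the BAZ1B start site. CLDN3 had 6.89, 10.4 and 11.8 normalized counts in KO and 53.9, 32.7 and 38.8 in WT, with every KO library lower (log2 fold change -2.10, SE 0.391, edgeR adjusted p = 0.00868). Without WT replicate 1, the change was -1.88 and the adjusted p 0.0575. At D6 CLDN3 had 1.01, 3.48 and 0 normalized counts in KO and 6.70, 2.26 and 6.04 in WT, with overlap and an edgeR adjusted p of 0.170. CLDN4, its neighbour of the same family, had a log2 fold change of -0.11 at D0 (edgeR adjusted p = 0.896). Markers of other blood lineages were also counted at D0. Summed mast cell and eosinophil markers were 21.8 to 31.8 CPM in WT and 31.9 to 59.2 CPM in KO, with 3 of 6 and 4 of 6 genes reaching 1 CPM and CLC at 0 in both. Summed megakaryocyte markers were 72.3 to 75.5 CPM in WT and 34.4 to 67.6 CPM in KO, where ITGA2B was the 1 gene of 4 that reached 1 CPM and PF4 and PPBP were at 0. Their part in the CLDN3 result was not tested.

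**Figure D3:**
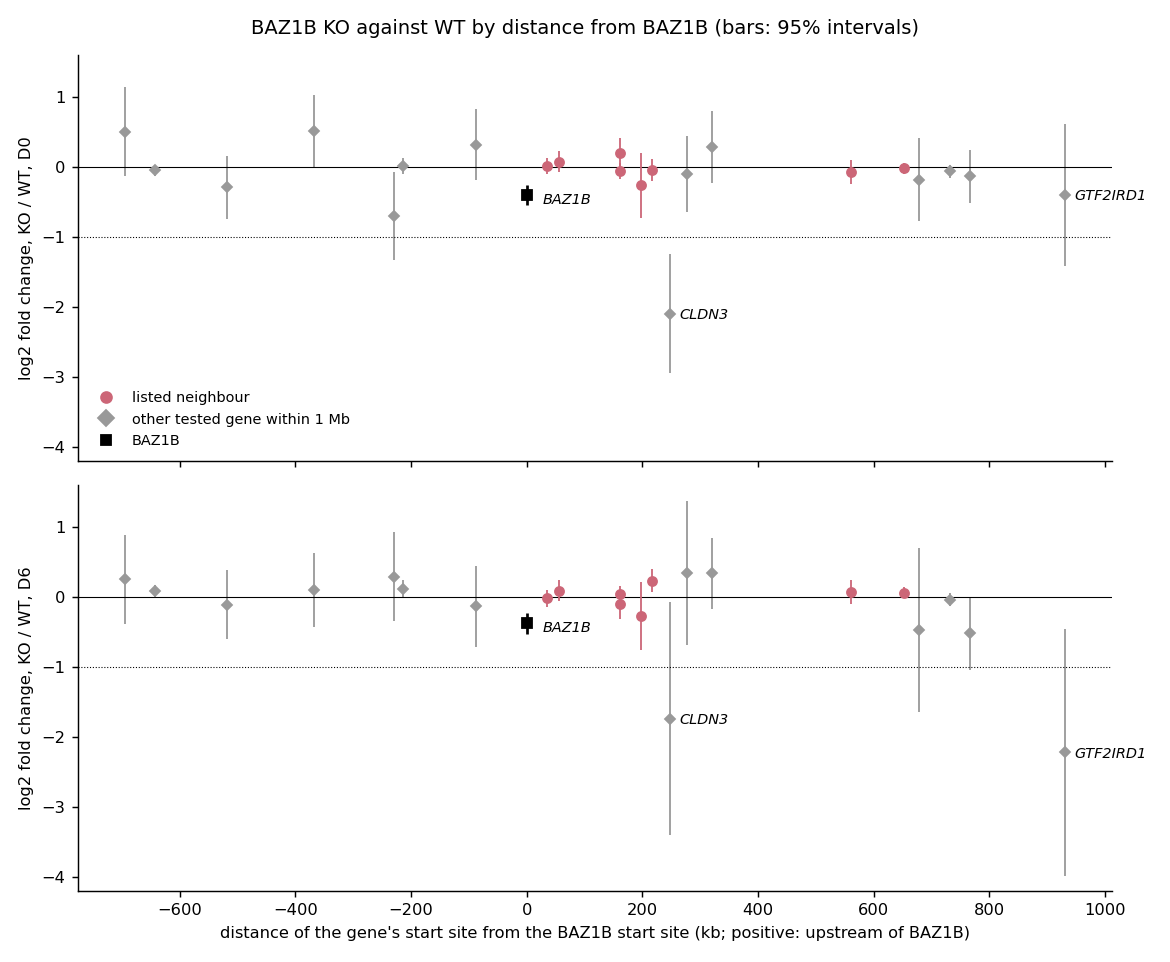
Log2 fold change of BAZ1B KO against WT at D0 (upper) and D6 (lower) by the distance of each gene's start site from that of BAZ1B in kb, positive upstream. Points are edgeR estimates with 95% intervals for the 8 tested neighbours (red), other tested genes within 1 Mb (grey) and BAZ1B (black), and the dotted line marks -1. The neighbours stay between -0.27 and 0.23, while CLDN3 lies at -2.10 at D0 and GTF2IRD1 at -2.22 at D6.

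At D6, edgeR called 0 of the 22 genes within 1 Mb, where it called 12.8% of all tested genes. DESeq2 called 2 of the 22, namely ABHD11 and GTF2IRD1, and the share of all genes it called is not given here. The median log2 fold change of the 22 genes was 0.05 at D6 and -0.06 at D0. GTF2IRD1, a transcription factor gene 931 kb from BAZ1B that was singled out after its values were seen, had 0, 11.6 and 1.05 normalized counts in KO and 23.4, 19.2 and 14.1 in WT (log2 fold change -2.22, SE 0.812, edgeR adjusted p = 0.0962). All its KO libraries were lower, at counts close to the floor. Of 18 other genes of the Williams syndrome region, 11 were tested. On each day edgeR called 1 of them, CLDN3 at D0 and GTF2I at D6, where it called 3.88% and 12.8% of all genes. GTF2I, a transcription factor gene 1128 kb from BAZ1B, had 3384, 3066 and 3248 normalized counts in KO and 2895, 2961 and 2971 in WT (log2 fold change 0.14, SE 0.0401, edgeR adjusted p = 0.0428). Near-identical copies of GTF2I flank the region, so its counts are uncertain. The call held in 6 of 20 settings, and leaving out any of 9 of the 12 libraries ended it, with adjusted p values up to 0.128 without KO D6 replicate 1.

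Among relatives and partners of the neighbours, which lie outside the region, several passed the test at D6. Of 29 such genes, 1 was called at D0 and 9 at D6, against 3.88% and 12.8% of all genes, and 8 of the 9 were higher in KO. Their median log2 fold change was 0.02 at D0 and 0.04 at D6, against 0.00 over all genes on both days after rounding. PKLR, the erythroid pyruvate kinase and a target of MLXIPL in liver, had 38164 to 39052 normalized counts in KO and 26852 to 28649 in WT at D6 (log2 fold change 0.46, SE 0.0519, edgeR adjusted p = 0.000109). STX4, a syntaxin of the same family as STX1A, was higher at D0 (log2 fold change 0.24, edgeR adjusted p = 0.0250) and at D6 (0.32, edgeR adjusted p = 0.00256), with 927 to 938 in KO and 738 to 759 in WT at D6. VPS37B, which takes the place of VPS37D in ESCRT-I, rose by 0.46 on the log2 scale at D6, from 1321 to 1658 in WT to 1913 to 2326 in KO. BCL7C, a relative of BCL7B, was at 1117 to 1262 in KO and 796 to 946 in WT (log2 fold change 0.43). EIF4B, another cofactor of eIF4A, rose by 0.20, the cofilin phosphatase SSH1 by 0.26 and the SNARE VAMP8 by 0.24. PKLR, VPS37B, BCL7C and, at D6, STX4 passed in all 20 settings. Calls were lost for EIF4B without WT D6 replicate 2 (adjusted p = 0.0539), for SSH1 without KO D6 replicate 2 (0.0677) or WT D6 replicate 3 (0.0858) and for VAMP8 without KO D6 replicate 1 (0.0671) or WT D6 replicate 3 (0.0839). STX4 lost its call at D0 without any 1 of 5 D0 libraries, all but KO replicate 1, with adjusted p values up to 0.128. When the compared day was fitted alone, SSH1 (0.0748) and VAMP8 (0.0533) at D6 and STX4 at D0 (0.0739) were not called either. At D6 the summed erythroid markers did not overlap between WT and KO, at 38070 to 43755 CPM and 32160 to 37916 CPM with 11 of 12 genes reaching 1 CPM in each, and the megakaryocyte markers were 8.32 to 10.4 CPM in WT and 1.42 to 4.77 CPM in KO, with 1 of 4 genes (ITGA2B) reaching 1 CPM and PF4 and PPBP at 0. Their part in the D6 results was not tested.

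Between the days of maturation, neighbours in WT cells of the BAZ1B experiment were called at a rate near that of all genes. In WT cells of the BAZ1B experiment, 6 of the 8 tested genes were called between D0 and D6, 4 lower and 2 higher at D6, where 68.9% of all genes were called. TBL2 fell from 1745, 1655 and 1578 normalized counts to 1026, 1069 and 1003 (log2 fold change -0.68, SE 0.0683, edgeR adjusted p = 1.28e-06), and ABHD11 from 920, 934 and 883 to 616, 561 and 556 (log2 fold change -0.66, SE 0.0744, edgeR adjusted p = 4.22e-06). BUD23 fell by 0.36 and LIMK1 by 0.26 on the log2 scale, while DNAJC30 rose by 0.28 and EIF4H by 0.11. BCL7B stayed near its level, with a log2 change of -0.03 and an interval from -0.14 to 0.09. In BAZ1B KO cells 4 of the 8 were called, where 67.7% of all genes were called. TBL2 (-0.67), BUD23 (-0.26) and ABHD11 (-0.38) were lower and EIF4H (0.19) higher at D6, and DNAJC30 (-0.02, interval -0.23 to 0.18) and LIMK1 (-0.12, interval -0.30 to 0.05) did not pass. LIMK1 passed in KO without KO D6 replicate 2 (-0.21, adjusted p = 0.0233) and did not pass in WT without WT D6 replicate 3 (-0.19, adjusted p = 0.0723). DNAJC30 did not pass in WT without WT D0 replicate 2 (adjusted p = 0.0748), WT D0 replicate 3 (0.0547) or WT D6 replicate 1 (0.0644). Without the filter on low counts neither DNAJC30 (adjusted p = 0.115) nor EIF4H (0.0924) passed in WT. The log2 fold change of BAZ1B itself was -0.09 in WT (edgeR adjusted p = 0.250).

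**Figure D4:**
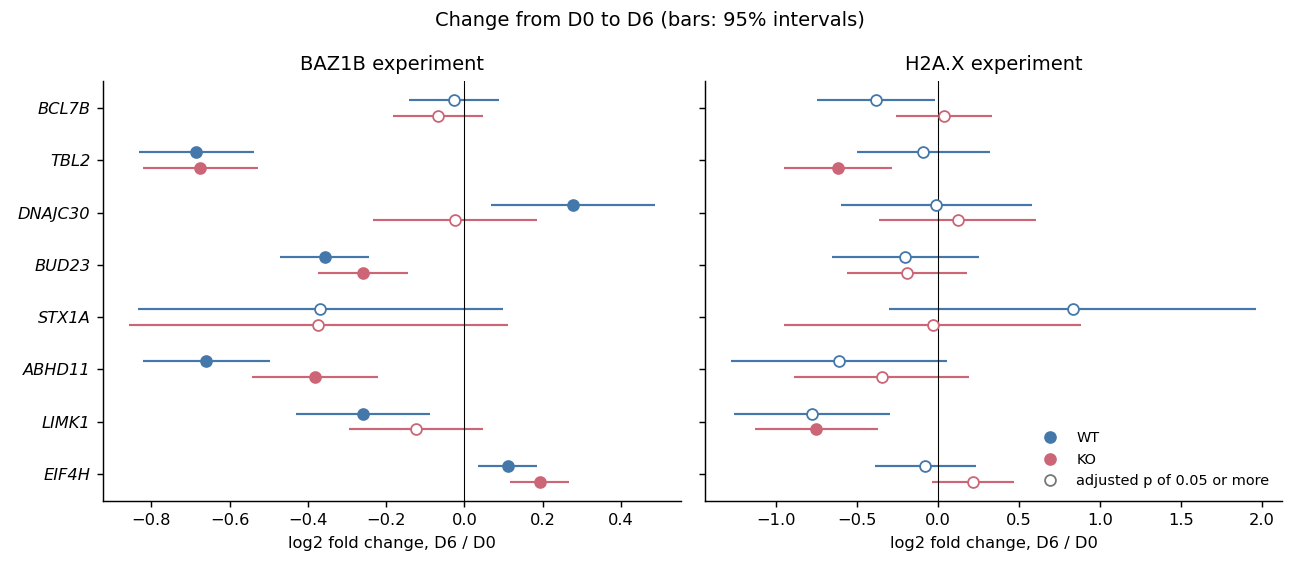
Log2 fold change from D0 to D6 for the 8 tested neighbours in the BAZ1B experiment (left) and the H2A.X experiment (right), for WT (blue) and KO (red), with 95% intervals. Filled points have an adjusted p below 0.05. TBL2 and ABHD11 lie lowest in WT of the BAZ1B experiment, at -0.68 and -0.66, and intervals are wider in the H2A.X experiment.

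In the H2A.X experiment, where the KO lies on another chromosome, neighbours were called between KO and WT at a rate near that of all genes. At D0, 4 of the 9 tested genes were called, where 35.1% of all genes were called. BUD23 had 1197, 1225 and 1243 normalized counts in KO and 1809 and 2340 in WT (log2 fold change -0.76, SE 0.184, edgeR adjusted p = 0.0131), and DNAJC30, at the same start region, had 88.8, 96.1 and 106 in KO and 140 and 220 in WT (-0.89, SE 0.240, edgeR adjusted p = 0.0193). BCL7B was lower as well (-0.64) and LIMK1 higher (0.63), with 397, 448 and 381 in KO and 273 and 256 in WT. All KO libraries of these genes lay outside the range of the WT ones, as did those of ABHD11, which was not called. How many of all tested genes show this in the H2A.X experiment was not counted. At D6, 4 of 9 were called, against 43.1% of all genes, namely TBL2 (-0.50), BUD23 (-0.75) and DNAJC30 (-0.76) lower and LIMK1 (0.66) higher in KO. The median over the 9 genes was 0.01 at D0 and -0.44 at D6, where that of all tested genes was 0.01 and -0.01. The D6 median is the estimate of MLXIPL, which had few and uneven reads and an interval from -2.66 to 1.77. BAZ1B itself was higher in H2A.X KO, with 4161, 4021 and 3994 in KO and 2149 and 1435 in WT at D0 (log2 fold change 1.18, edgeR adjusted p = 0.00943), and by 1.23 at D6 (edgeR adjusted p = 0.00551). The effects of the 2 knockouts come from separate tables with different spread, and the difference between them was not tested.

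The annotation gives BUD23 1201 bp of exons, DNAJC30 2536 bp, BCL7B 3230 bp, TBL2 6396 bp, LIMK1 7038 bp and BAZ1B 7060 bp. When each library was corrected for transcript length, the log2 fold change of BUD23 was -0.17 at D0 (interval -0.50 to 0.17) and 0.08 at D6 (interval -0.26 to 0.42). For DNAJC30 it was -0.48 and -0.25, for BCL7B -0.40 and 0.09, and for LIMK1 0.41 and 0.40, none of them called. With this correction 0 of the 9 genes were called at D0 and 1 at D6, TBL2 at -0.71 (edgeR adjusted p = 0.0142), and BAZ1B stayed higher at 0.98 and 0.96. In the BAZ1B experiment the same correction moved no call among the neighbours. The word Redo stands in the column names of 5 of the 6 H2A.X KO libraries and of no WT library, so at D0 it cannot be told apart from the genotype. Summed erythroid markers at D0 were 11938 to 15930 CPM in H2A.X KO and 23449 to 31938 CPM in WT, and mast cell and eosinophil markers 29.4 to 52.5 CPM and 0.575 to 1.09 CPM, with 3 of 6 and 0 of 6 genes reaching 1 CPM, CLC at 0 in both and CPA3 and HDC at 0 in WT. Their part in these values was not tested. Leaving out WT replicate 2 at D0 or at D6 left 0 of the 9 genes called on that day, and BAZ1B then had adjusted p values of 0.119 and 0.0737. At D0, 2 of 9 were called without KO D0 replicate 1 or without KO D0 replicate 2, and at D6, 2 without KO D6 replicate 1, KO D6 replicate 2 or WT D6 replicate 1. At D0, LIMK1 lost its call without any single D0 library (adjusted p = 0.0643 to 0.196), with upper-quartile scaling (0.0631) and without the filter (0.0948), and DNAJC30 without KO D0 replicate 1 (0.0625), KO D0 replicate 2 (0.0558) or WT D0 replicate 2 (0.231). At D6, TBL2 lost its call without any 1 of 6 libraries, namely the 3 KO D0 libraries, KO D6 replicate 2 and both WT D6 libraries (0.0527 to 0.273), without the filter (0.166), with the day alone (0.137) and with the replicate block (0.0536). LIMK1 lost it at D6 without KO D6 replicate 1 (0.0567) or WT D6 replicate 2 (0.167), with upper-quartile scaling (0.0588), without the filter (0.0554) and with the day alone (0.0891). DNAJC30 lost it at D6 without KO D6 replicate 1 (0.0665), KO D6 replicate 2 (0.0619), WT D6 replicate 1 (0.0936) or WT D6 replicate 2 (0.147), without the filter (0.123) and with the day alone (0.0780).

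**Figure D5:**
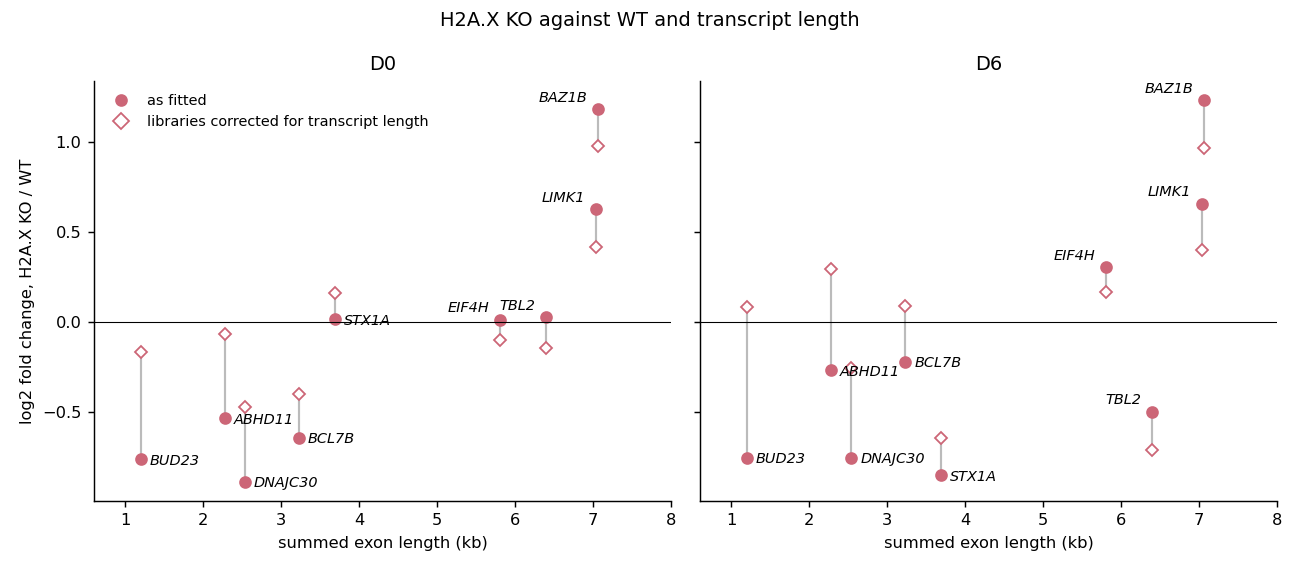
Log2 fold change of H2A.X KO against WT at D0 (left) and D6 (right) by the summed exon length in kb, for BAZ1B and the 8 neighbours tested in both experiments. Filled circles are values as fitted and open diamonds those after correction of each library for transcript length, joined by a line. BUD23, the shortest at 1201 bp, moves from -0.76 to -0.17 at D0, and BAZ1B from 1.18 to 0.98.

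A difference between the 2 days in the H2A.X KO effect was called by edgeR for 0 of 9 neighbours, with 0 at an unadjusted p below 0.05 and 0 by DESeq2, where edgeR called 1.34% of all genes. With the subclone, taken from the replicate number, as a block, 552 of all genes were called in place of 177, and 0 of the 9 neighbours. Between the days, edgeR called 0 of 9 in WT, where it called 2% of all genes. Of the 9, 2 had an unadjusted p below 0.05, where 21.1% of all genes had one. DESeq2 called 1, LIMK1, and the share of all genes it called is not given here. In H2A.X KO cells 2 of 9 were called, against 30.9% of all genes: TBL2 at -0.62 and LIMK1 at -0.75. Without KO D0 replicate 2, TBL2 had an adjusted p of 0.0520. MLXIPL passed the filter here through uneven counts, with 38, 3 and 3 reads in KO and 25 and 4 in WT at D6, 6, 2 and 8 reads in KO and 3 and 2 in WT at D0, and it was not called in any comparison with the filter. VPS37D had at most 1 read in any library.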

How the data were processed

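RNA-Seq libraries of HUDEP-2 cells from 2 experiments were grouped by genotype and day from their titles. The authors deposited raw read counts per gene, 1 column per library, without normalization. Per the labels, reads were mapped with STAR 2.7.0f to hg38 and counted with featureCounts of Subread 1.6.4. The labels and the paper's methods differ on whether the kit keeps strand, so overlapping antisense reads could be included. Each experiment was fitted on its own in R 4.3.3 with edgeR 4.0.16, using TMM normalization, filterByExpr (count floor 10, total floor 15), and 1 coefficient per genotype and day. Two-sided quasi-likelihood tests were adjusted by Benjamini-Hochberg over 13879 and 13236 genes, with 95% intervals from the moderated degrees of freedom. Errors are SDs over libraries. Reads carry no molecular identifiers, so counting error covers reads only. Alternatives were DESeq2 1.42.0, other size factors, no filter, a replicate term, a length correction, the compared day alone and leaving out each library. Deviations from group means of same-numbered KO libraries at D0 and D6 correlated with r = 0.467, 0.547 and 0.125 in the BAZ1B experiment and 0.542, 0.335 and 0.271 in the H2A.X experiment, so the numbers were taken to pair KO libraries between days. The block pairs WT libraries by number as well, and fits with it are given where they change a count. In WT the values were 0.219, -0.034 and 0.165 in the BAZ1B experiment. In the H2A.X experiment both WT pairs give the same value, 0.566, because the deviations of 2 libraries mirror each other. The procedure was tested on simulated data. Positions and exon lengths come from GENCODE 44, and 36434 gene names matched by symbol.

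The 10 genes, the lists and the tests were chosen with earlier results of these data known. Named beyond the 10 were genes of the region, or within 1 Mb, called in a BAZ1B KO comparison, at most 8 relatives or partners by smallest p (1 of them is not reported here), and for the gene with the smallest p on each day the 3 genes with the highest correlation. CLDN4, GTF2IRD1, ABHD11-AS1 and the single marker genes were named after their values were seen. Promoter windows are RefSeq's. Guide sequences were not used here.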

Additional observations from a re-analysis of the deposited data

How the results depend on the processing

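In the BAZ1B experiment, 0 of the 8 tested neighbours were called at D0 under every alternative run, and BAZ1B itself was lower in all 20 settings on both days. The called neighbours in BAZ1B KO at D6 numbered 1 (ABHD11) with DESeq2 and 0 to 1 when single libraries were left out, 1 being reached without KO D0 replicate 1. At an adjusted p below 0.01, 3 neighbours were called between days in WT of that experiment, and in the H2A.X experiment 0 at D0, 0 at D6 and 1 between days in KO. With the transcript length correction, H2A.X KO gave 0 called at D0 and 1 at D6. At D6 H2A.X KO gave 1 called without the filter and 1 with the compared day alone, and WT cells between days gave 1 without the filter (MLXIPL) and 1 with DESeq2. With single libraries left out, H2A.X KO called 0 to 5 neighbours at D0, 0 to 4 at D6 and 1 to 2 between days in KO. Within 1 Mb of BAZ1B, leaving out single libraries gave 0 to 1 called genes at D0 and 0 to 3 at D6, and at D6 there were 2 without the filter (CLIP2 and GTF2IRD1), 2 with DESeq2 and 1 in a window of 2 Mb. Except where fewer samples or another threshold fixes the count, the cause was not tested.

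Signs reversed only among log2 fold changes that were not called as reported, apart from BUD23 in H2A.X KO at D6. For H2A.X KO at D0, TBL2 was at -0.0497 with upper-quartile scaling and -0.14 with the length correction, STX1A at -0.0667 with upper-quartile scaling and -0.00548 with the day alone, and EIF4H at -0.0669, -0.0990 and -0.00456 with upper-quartile scaling, the length correction and the day alone. At D6 the length correction gave 0.0861 for BCL7B, 0.0831 for BUD23 and 0.29 for ABHD11. With single libraries left out, the range in BAZ1B KO was -0.0359 to 0.0642 for BCL7B at D0, -0.00209 to 0.068 for BUD23 at D6 and -0.0343 to 0.14 for LIMK1 at D6, and -0.13 to 0.0473 for DNAJC30 between days in KO. In H2A.X KO it was -0.0690 to 0.13 for TBL2, -0.35 to 0.53 for STX1A and -0.0489 to 0.0750 for EIF4H at D0, and -1.03 to 0.94 for MLXIPL at D6.

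Replicate numbers did not pair KO with WT in the BAZ1B experiment, where deviations of same-numbered libraries correlated with -0.128 to 0.231. With replicate number as a block, TBL2 in H2A.X KO at D6 had a log2 fold change of -0.50 (edgeR adjusted p = 0.0536) and GTF2I in BAZ1B KO at D6 0.14 (edgeR adjusted p = 0.0555), and no other call named here changed. Between days, the block was the replicate number within each genotype, taken as the subclone. With it, calls over all genes rose from 343 to 718 and from 177 to 552 for the KO effect at the 2 days in the BAZ1B and H2A.X experiments, and from 265 to 1127 in WT of the latter, while the called neighbours stayed 0, 0 and 0. Depth limited MLXIPL, VPS37D and STX1A, whose counts were low.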
